A study of Mus musculus with 6 samples.

Results

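C2H2 zinc finger transcription factor genes were followed in the lists of cytosines whose methylation differed between Tet1 knockout and wild-type LSK cells of mouse bone marrow. A site was taken when the gene with the nearest annotated transcription start had a name made of Zfp, Zbtb, Zscan, Klf, Prdm, Sall, Egr, Gli, Glis, Zic or Ikzf followed by a digit. This gave 140 of the 6756 listed sites and 80 of the 3344 genes named in the lists. LSK cells lack lineage markers and carry Sca-1 and Kit, and they contain the haematopoietic stem and progenitor cells. They were sorted from mice 6 months old of a strain labelled CD57BL/6, with 3 wild-type samples and 3 samples lacking Tet1, an enzyme that oxidises 5-methylcytosine. How the Tet1 allele was made, and whether samples were separate mice, is information not given in the sources used here. Reduced representation bisulfite sequencing reads mainly CpG-rich sequence, and it counts 5-hydroxymethylcytosine together with 5-methylcytosine. Each value below is the authors' deposited methylation difference at 1 cytosine, in percentage points, as knockout minus wild type. The values per sample, the coverage and the site p-values were not used here, so the spread between replicates cannot be set beside any difference and no test was made.

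In a C2H2 zinc finger, a pair of cysteines and a pair of histidines hold a zinc ion, and several fingers in a row read DNA sequence. The families differ in what accompanies the fingers. Zbtb proteins carry a BTB domain, Zscan proteins a SCAN domain and Prdm proteins a PR domain related to histone methyltransferases, while Klf, Egr, Gli, Zic and Sall proteins are regulators of development and differentiation. Many Zfp genes lie in clusters of similar copies, and many of their products silence retrotransposons with the help of a KRAB domain. Members were taken by name and were not checked for C2H2 motifs in their proteins. Zfp36l1 is described in the authors' deposited table as a C3H type protein, and that family binds messenger RNA. The name rule kept it, with 1 hypomethylated site.

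Most zinc finger sites were more methylated in the knockout. Of the 140 sites, 126 were hypermethylated and 14 hypomethylated, a hypermethylated share of 90.0% (95% limits 83.8 and 94.4% by the exact Clopper-Pearson method, for counting error alone) against 92.8% of all listed sites. Of the 80 genes, 66 had hypermethylated sites alone (82.5%, 72.4 to 90.1%), 8 had hypomethylated sites alone and 6 had both. Over all 3344 listed genes 87.0% had hypermethylated sites alone, 326 genes had hypomethylated sites alone and 108 had both. The share of zinc finger genes with a hypomethylated site was thus near the background. In homeobox genes, matched by prefix, 115 of 118 sites were hypermethylated, and in forkhead, Sox, T-box and Gata genes 59 of 61 were.

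The size of the gains was also close to that of the lists as a whole. The hypermethylated zinc finger sites had a median difference of 40.1 percentage points (quartiles 32.9 and 49.1, range 25.7 to 81.0) in the authors' deposited table, against 41.1 over all hypermethylated sites. At least 40 percentage points were reached by 64 of the 126 sites (50.8%), against 53.4% of all hypermethylated sites. At least 60 percentage points were reached by 12 (9.52%), against 12.3% of all hypermethylated sites. The 14 hypomethylated sites had a median of -34.3 percentage points (range -81.1 to -28.6), against -34.1 over all hypomethylated sites.

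The sites were spread thinly over the genes, at 1.75 per gene, near the 2.02 of all listed genes. A single site was nearest to 47 of the 80 genes, 20 genes had 2 sites, 8 had 3, and 5 had more. Joined where they lay under 1000 bp from each other and shared a direction, the sites formed 88 hypermethylated and 14 hypomethylated regions. Of the hypermethylated regions 25 (28.4%) held 2 sites or more, against 31.8% of all hypermethylated regions, and each of the 14 hypomethylated regions was 1 site. The plot of differences by gene shows the 33 genes with at least 2 sites.

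**Figure D1:**
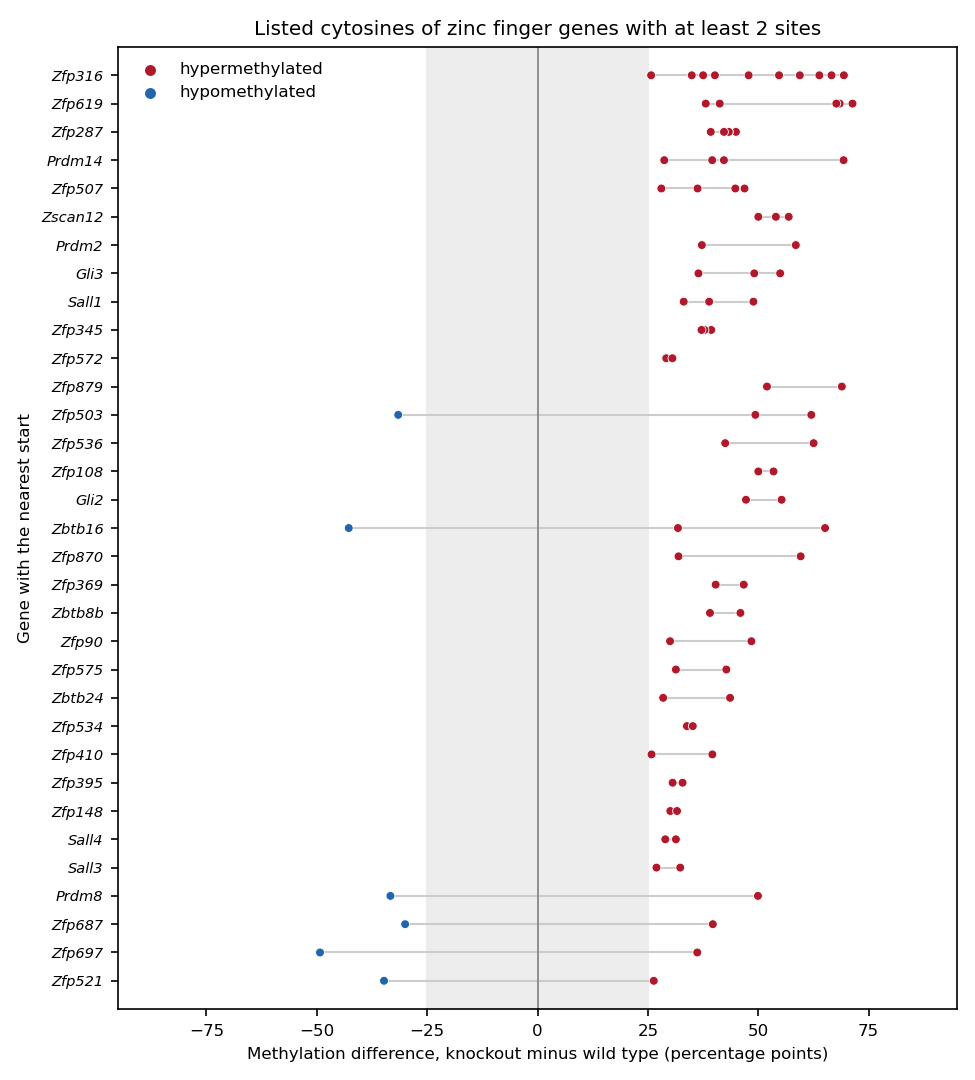
Methylation differences of the listed cytosines (x axis, percentage points, knockout minus wild type) for the 33 zinc finger genes with at least 2 sites (y axis), from the authors' deposited tables. Each point is 1 cytosine, red where hypermethylated and blue where hypomethylated, grey lines join the sites of a gene, and the grey band holds differences under 25 percentage points, which the lists leave out. In 27 of the 33 genes every point lies on the hypermethylated side, and in 6 genes blue and red points lie on opposite sides.

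Zfp316, which encodes a zinc finger protein, had the most sites. Its 11 hypermethylated sites lay on chromosome 5 (mm9), 10 of them at 144015268 to 144017151 in exon 7 of 7, the last exon, 14550 to 16433 bp downstream of the start. In the order of the chromosome, the deposited differences of those 10 were 37.5, 37.5, 66.6, 63.8, 69.4, 59.4, 40.2, 54.7, 47.8 and 34.9 percentage points. The 4 sites from 144016490 to 144016537 were the highest, and the sites at either end of the stretch were the lowest. The other Zfp316 site lay in the promoter, 263 bp upstream of the start, and its difference of 25.7 percentage points was the smallest of all 126 gains. Of the 10 exon sites 9 were on the forward strand.

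The next genes carried their sites between genes. Zfp619 had 5 intergenic sites on chromosome 7. A group of 4 at 46743152 to 46743196, about 30 kb upstream of the start, differed by 68.4, 71.3, 67.7 and 41.3 percentage points, and the last of these lay in a simple repeat. The fifth, at 47094722, lay 321586 bp downstream of the start and differed by 38.1 percentage points. Zfp287 had 5 intergenic sites on chromosome 11 whose deposited differences spanned a narrow range, from 39.2 to 44.9 percentage points. Of these, 3 lay 2165 to 2251 bp upstream of the start and 2 lay about 28.6 kb upstream. Zfp507 had 4 sites on chromosome 7, 119806 to 137260 bp upstream, at 46.9, 44.8, 36.2 and 28.0 percentage points, per the authors' deposited table. Zfp345 had 3 sites in an intergenic CpG island on chromosome 2 (150351576 to 150351609), at 39.3, 37.8 and 37.1 percentage points, about 40.8 kb upstream. Because many Zfp genes have similar copies, the placing of short reads at such genes may be uncertain. It was not examined for these intergenic sites.

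**Figure D2:**
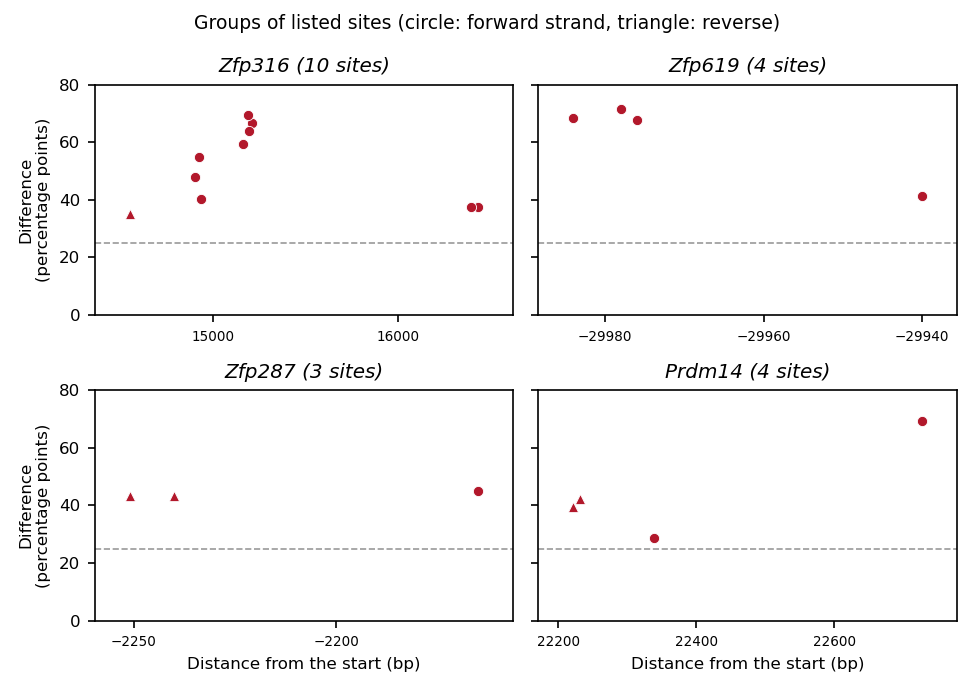
Methylation difference (y axis, percentage points) against distance from the transcription start (x axis, bp, downstream positive) for groups of sites nearest 4 genes, from the authors' deposited table. Circles are cytosines on the forward strand, triangles on the reverse strand, and the dashed line marks the 25 percentage points at which the lists begin. The 10 Zfp316 sites in the last exon run from 34.9 to 69.4 percentage points with the highest in the middle of the stretch, and the 3 Zfp287 sites lie between 43.3 and 44.9.

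Neighbouring cytosines often gave similar values. Among successive sites of a gene on the same strand, 27 pairs lay under 50 bp apart, the read length the labels give, so both sites of a pair can come from the same reads. The median gap within these pairs was 5.56 percentage points (range 0 to 27.7), and 2 pairs had identical values. Site counts are therefore not counts of independent measurements. The widest gap was at Zfp870, where sites 14413 and 14418 bp downstream of the start differed by 59.6 and 31.9 percentage points, per the authors' deposited table.

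In the Sall, Gli and Prdm families, grouped after their values were seen, all 21 hypermethylated sites were intergenic, against 36.1% of all hypermethylated sites. Some of these lay close to a start, such as those of Gli3 1629 bp and of Sall2 1955 bp upstream. All 4 Sall genes were listed, against 13.7% of all protein-coding genes, and this share was not tested. Each had hypermethylated sites alone, as did 87.0% of all listed genes. Sall1, a regulator of kidney development, had 3 sites on chromosome 8. Those at 91437980 and 91438013, about 130 kb downstream, differed by 38.9 and 33.1 percentage points, and that at 92096288, 528227 bp upstream, by 48.9. Sall3 had sites of 26.9 and 32.3 percentage points 111594 and 111602 bp upstream, and Sall4, a pluripotency factor, had sites of 31.3 and 28.9 percentage points 2058 and 52739 bp upstream. The single Sall2 site differed by 27.3 percentage points, per the authors' deposited table. The median of the 8 Sall sites was 31.8 percentage points, below the 40.1 of the zinc finger sites together.

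Among the Hedgehog effectors, Gli2 and Gli3 were listed and both were hypermethylated alone, as were 87.0% of all listed genes. Gli3, which acts mainly as a repressor of the pathway, had 3 sites upstream on chromosome 13. The 2 at 15553922 and 15553927, 1634 and 1629 bp from the start, differed by 36.4 and 54.9 percentage points, and the site 36376 bp away by 49.1. Gli2, an activator, had sites of 55.3 and 47.2 percentage points on chromosome 1, 23797 and 23826 bp upstream. All Gli sites were on the reverse strand in the authors' deposited table.

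Prdm14, which directs germ cell and pluripotent cell identity, had 4 hypermethylated sites at 13094517 to 13095022 on chromosome 1, about 22 kb downstream of its start. The first differed by 69.3 percentage points, per the authors' deposited table. The other 3, in a B1F1 SINE repeat, differed by 28.7, 42.2 and 39.6, all below it. Prdm2, the gene of a histone methyltransferase, was nearest to 3 sites of 58.5, 37.2 and 58.5 percentage points, but these lay 187800 to 302703 bp away. Prdm8 had a hypermethylated site of 49.9 percentage points 14632 bp upstream and a hypomethylated site of -33.3 in intron 1 of 3, 2351 bp downstream.

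The gains described for Klf and Zic genes ran from 28.1 to 41.2 percentage points. Of 17 annotated Klf genes 5 were listed, against 13.7% of all protein-coding genes, and this share was not tested. Klf16 had a site of 40.1 percentage points in its only intron, and Klf11 had a site of 28.1 percentage points in exon 3 of 4. The sites nearest Klf3 and Klf12 were intergenic, 59017 and 136710 bp from the start. They differed by 30.5 and 33.3 percentage points, per the authors' deposited table. Klf8 alone of the 5 Klf genes was hypomethylated. Its site at 149672676 on X lay in the promoter, 88 bp downstream of the start, and differed by -34.9 percentage points. Zic4 and Zic5, regulators of neural development, had 1 hypermethylated site each, in their first introns, of 28.7 and 41.2 percentage points. The site nearest Egr3 (42.8 percentage points) lay 55935 bp away in intron 4 of Pebp4.

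Of the Zbtb genes, Zbtb16 encodes PLZF, a regulator of innate-like T cells and of blood stem cells. It had a hypermethylated site of 65.1 percentage points in intron 2 of 6 and another of 31.8 percentage points 11999 bp upstream, and a hypomethylated site of -42.8 in intron 3 (chromosome 9, 48536656). Zbtb24, which is mutated in a human syndrome with loss of DNA methylation at repeats, had a promoter site of 28.4 percentage points 708 bp upstream and a first-intron site of 43.6 percentage points 424 bp downstream. Zbtb8b had 2 first-intron sites of 39.0 and 45.9 percentage points. Zscan12 had first-intron sites of 50.0 and 56.9 percentage points, 666 and 710 bp downstream, and a site of 54.0 in an ERVK repeat 3090 bp upstream. The site nearest Zscan4d, 1 of a cluster of near-identical genes, was hypomethylated (-30.2 percentage points) in an ERV1 repeat 43288 bp away. Its placing may be uncertain, and how reads were placed there was not examined.

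Near the starts, the zinc finger gains resembled the list as a whole in lying more on the downstream than on the upstream side. Within 1000 bp of a start lay 26 of the 126 hypermethylated sites (20.6%, exact interval 13.9 to 28.8%), against 26.3% of all hypermethylated sites. They belonged to 20 genes, 17 of them of the Zfp prefix. The 8 upstream sites, all in promoters (6.35% of the gains, against 8.36% of all hypermethylated sites), lay 169 to 801 bp from the start, with a median of 29.7 percentage points (range 25.7 to 49.0). The 18 downstream sites lay 152 to 741 bp from the start, 14 of them in first introns and 4 in exons, with a median of 43.3 percentage points (range 30.0 to 68.9). The ranges overlap, and the difference in medians was not tested. No zinc finger gain lay closer than 152 bp to a start. All 18 downstream sites lay more than 100 bp from the start, a share of 14.3%, against 16.1% of all hypermethylated sites. In homeobox genes 2 of 115 hypermethylated sites lay in that downstream window, and in forkhead, Sox, T-box and Gata genes 1 of 59. In a list of 66 further C2H2 genes, given below, 2 of 31 did (6.45%). The limits of this window were set after the values were seen.

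**Figure D3:**
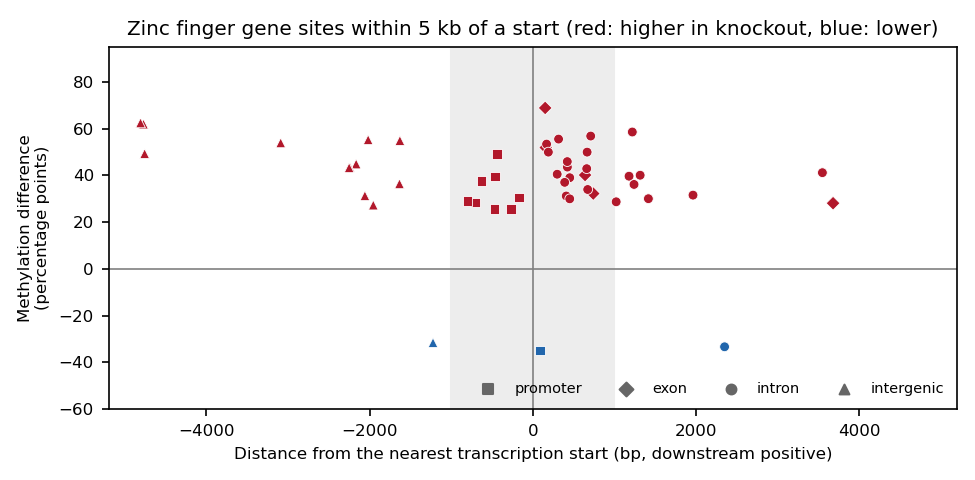
Methylation difference (y axis, percentage points) against distance from the nearest transcription start (x axis, bp, downstream positive) for the 50 zinc finger sites within 5000 bp of a start, from the authors' deposited tables. Red points are hypermethylated and blue hypomethylated, the shape gives the feature, and the grey band spans 1000 bp on either side of the start. Downstream in the band the red points reach 68.9 percentage points, and upstream they reach 49.0.

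The largest near-start gains, named after their values were seen, were those of Zfp879 on chromosome 11. Its 2 sites in the 5′ UTR of exon 1, 152 and 159 bp downstream of the start, differed by 68.9 and 52.0 percentage points. Zscan12, given above, Zfp454, with a first-intron site of 55.6 percentage points 316 bp downstream, and Zfp108, with sites of 53.4 and 50.0 percentage points 169 and 191 bp downstream on chromosome 7, followed. Of the genes with promoter sites, Zfp709 had the largest difference, 49.0 percentage points 442 bp upstream of its start. Zfp410, whose product activates the chromatin remodeller gene Chd4, had 2 promoter sites of 25.8 and 39.6 percentage points, 469 and 462 bp upstream. Zfp12 had 1 promoter site of 37.8 percentage points, and Zfp572, annotated as a pseudogene in the authors' deposited table, had 1 of 30.5 percentage points 169 bp upstream and 2 in a LINE repeat.

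The 250 bases upstream of the start are shown for 3 genes with a site near the start, to let a reader see how CpG-rich or CpG-poor that sequence is. They come from RefSeq (GRCm38.p6), read 5′ to 3′ on the strand of the gene, and capitals mark each CpG. The listed sites themselves lie outside these windows, 13 bases or more from them at Zfp316, and the mm9 positions above do not apply to this build. Zfp316 (chr5:143270023-143270272, reverse strand) holds 15 CpGs, Zfp709 (chr8:71881818-71882067, forward strand) 17, and Zfp879 (chr11:50841553-50841802, reverse strand) 6.
Zfp316: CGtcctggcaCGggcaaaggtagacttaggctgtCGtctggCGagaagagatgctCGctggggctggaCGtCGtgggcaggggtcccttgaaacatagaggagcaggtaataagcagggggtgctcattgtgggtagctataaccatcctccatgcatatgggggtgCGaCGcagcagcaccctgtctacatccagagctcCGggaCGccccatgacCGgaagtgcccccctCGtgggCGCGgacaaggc
Zfp709: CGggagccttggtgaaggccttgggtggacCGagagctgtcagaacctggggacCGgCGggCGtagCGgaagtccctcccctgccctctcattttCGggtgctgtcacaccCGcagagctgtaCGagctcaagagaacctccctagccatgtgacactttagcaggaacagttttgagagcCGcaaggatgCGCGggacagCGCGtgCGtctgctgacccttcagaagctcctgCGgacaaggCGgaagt
Zfp879: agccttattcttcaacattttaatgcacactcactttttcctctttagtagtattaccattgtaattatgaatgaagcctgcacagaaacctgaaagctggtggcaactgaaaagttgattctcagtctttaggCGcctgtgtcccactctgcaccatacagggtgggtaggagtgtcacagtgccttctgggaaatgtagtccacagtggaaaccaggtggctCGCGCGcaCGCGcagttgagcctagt
In Zfp879 5 of the 6 CpGs stand in the last 50 bases before the start. In Zfp709 they are spread over the window, and in Zfp316 they stand toward its ends, with none in the middle. Over the 60 zinc finger genes matched in the RefSeq table the median was 11 CpGs per window (quartiles 7.5 and 18), equal to the 11 over all 415 matched genes of these families. It was 13 over all 2497 matched genes in the lists and 10 over all 17491 matched protein-coding genes.

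By feature, most hypermethylated zinc finger sites were intergenic and few lay in promoters. Intergenic sites were 73 of 126 (57.9%, exact interval 48.8 to 66.7%), against 36.1% of all hypermethylated sites. Promoter sites were 8 of 126 (6.35%, 2.78 to 12.1%), against 11.2%, and at a difference of at least 40 percentage points 1 of 64 remained (1.56%). Introns held 20.6% against 31.3%, and termination sites held none (exact upper limit 2.89%) against 1.82%. Exons, counted with UTR and non-coding labels, held 15.1% against 19.6%. Of the 19 exon sites 10 were in Zfp316, so the exon share rests largely on that gene. Without Zfp316 the intergenic share was 63.5% (73 of 115). Homeobox genes (63.5% intergenic) and forkhead, Sox, T-box and Gata genes (62.7%) were also mainly intergenic. In the list of 66 further C2H2 genes given below, 13 of 31 hypermethylated sites were intergenic (41.9%) and 15 were in introns (48.4%). These intervals treat sites as independent, which close sites are not, and the differences were not tested.

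**Figure D4:**
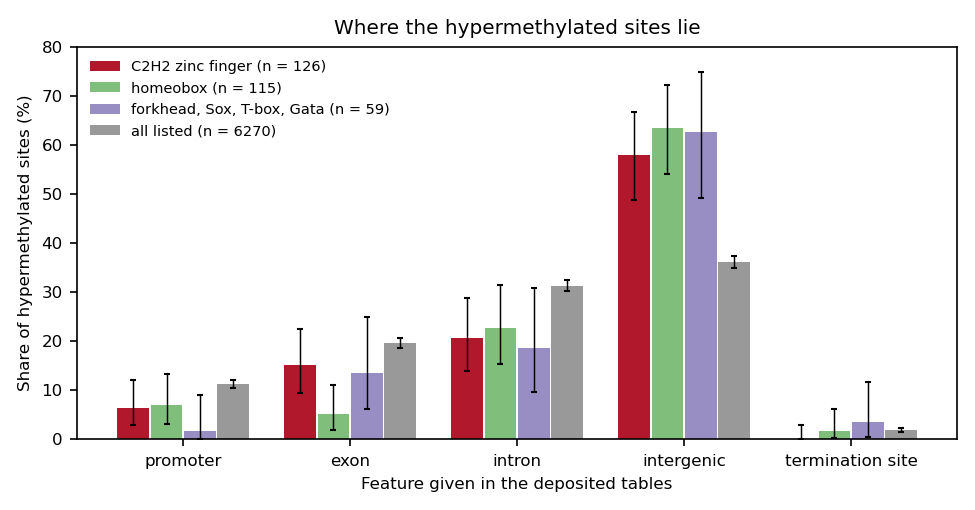
Share of hypermethylated sites (y axis, %) by feature (x axis) for the zinc finger genes, 2 other groups of transcription factor genes and all listed sites. Features come from the authors' deposited table, with UTR and non-coding labels counted as exon. Bars are shares, error bars are exact Clopper-Pearson 95% intervals covering counting error only, and n is the number of sites. The intergenic share is 57.9% for zinc finger genes and 36.1% for all listed sites.

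Not every site lay in or beside the gene it was assigned to. Of the 126 hypermethylated sites 48 were annotated to the gene itself, 8 of these to its promoter upstream of the start, 73 were intergenic and 5 were annotated to another gene. Of the 14 hypomethylated sites the counts were 5, 5 and 4. Those in other genes were the sites nearest Zfp36l1, in intron 8 of Rad51b and 377658 bp away, Zfp354c, in intron 10 of Adamts2, Zfp523, in intron 15 of Scube3, and Zfp687, at the end of Pi4kb. Their differences were -29.3, -34.4, -34.3 and -30.0 percentage points, per the authors' deposited table. More than 100 kb from the start lay 14.3% of the zinc finger gains, against 10.3% of all.

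The hypomethylated sites were single cytosines of 14 genes. The largest loss was nearest Zfp704, at -81.1 percentage points (chromosome 3, 9624200), an intergenic site 14115 bp upstream. It stood well apart from the other 13, which ran from -49.3 to -28.6 percentage points. Zfp697 followed with -49.3 percentage points in a LINE repeat of its first intron, and Zfp169 with -45.6 percentage points 43769 bp downstream. The Zfp213 site differed by -28.6 percentage points, 14819 bp downstream.

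In 6 of the 80 genes, against 108 of all 3344 listed genes, hypermethylated and hypomethylated sites were both listed. Among the 6 were Zbtb16 and Prdm8, given above. Zfp521, which encodes a cofactor of blood stem and progenitor cells, had a hypomethylated site of -34.8 percentage points in exon 4 of 8 and a hypermethylated site of 26.3 percentage points in intron 5, about 104 kb apart on chromosome 18. Zfp503, a repressor in neural and limb development, had a hypomethylated site of -31.6 percentage points 1223 bp upstream and hypermethylated sites of 49.3 and 62.0 percentage points 4758 and 4772 bp upstream. Zfp687 had a first-intron gain of 39.7 percentage points, and Zfp697 had a gain and a loss in the same intron, 36.2 percentage points at 1241 bp and -49.3 at 28873 bp. The nearest opposite sites of these 6 genes lay 3535 bp apart. The largest gain at 1 cytosine, by contrast, was nearest a gene with no other site, Zfp871, at 81.0 percentage points (chromosome 17, 32890867), 34365 bp downstream of its start.

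Of the protein-coding genes annotated in RefSeq with these prefixes, the Ikzf prefix aside, 79 of 504 (15.7%) were nearest to a listed site, against 13.7% of all protein-coding genes. By family the counts were 54 of 397 for Zfp, 5 of 41 for Zbtb, 2 of 16 for Zscan, 5 of 17 for Klf, 3 of 14 for Prdm, 4 of 4 for Sall, 1 of 4 for Egr, 2 of 3 for Gli and 0 of 3 for Glis, with the Zic genes making up the rest. The shares depend on how much of each gene's surroundings was read, and the unlisted cytosines that were read are not analysed here.

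A list of 66 further C2H2 genes outside these prefixes gave 17 listed genes, a listed share of 25.8% against 13.7% of all protein-coding genes. This list was chosen with earlier results of these data known, so its share cannot be read as an enrichment. Of the 17, 14 had hypermethylated sites alone (82.4%), near the 87.0% of all listed genes. Casz1 had 5 hypermethylated sites (mean 44.7 percentage points) and 1 hypomethylated site. Snai1, a repressor in epithelial-mesenchymal transition, had 4 hypermethylated sites averaging 52.0 percentage points, per the authors' deposited table, and Wt1, a regulator of kidney development, had 3 averaging 37.3. Zfpm1, the gene of the Gata1 cofactor FOG1, had 3 averaging 36.5 percentage points. Tshz3 had 1 hypermethylated site (43.9 percentage points) and 2 hypomethylated sites (mean -39.0).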

How the data were processed

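The authors' deposited tables list single cytosines with a methylation difference in percentage points (25 or more in size) and the distance in bp to the nearest transcription start, with positions in mm9 per the file headers. Per the submitters' processing notes Bismark was used, in a version and for a step left unnamed. Which program called the differences, at what coverage and at what threshold, is likewise not given in the sources used here. Both tables hold 0 columns of values per sample, so depth, replicate spread and a test between the 3 wild-type and 3 knockout samples could not be had. The direction was taken from the list names and signs.

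Members and gene lists were chosen with earlier results of these data known. All 80 genes were matched by Entrez identifier in RefSeq (GRCm38.p6), used for names. Of the listed genes that match the name rule, 1 is left out of the member counts and 1 is counted but not reported here by name. The sign of the distance follows the strand of the cytosine. Multiplied by the strand, and with gene strands from RefSeq, it gave the same start position for 1020 of 1022 transcripts with at least 2 sites, and 112 of 154 sites in the promoter windows fell on a CpG (3 and 2 when shifted by 1 bp to either side). Regions join sites that share a direction and lie under 1000 bp from each other. Shares carry exact Clopper-Pearson 95% intervals (scipy 1.17.1), which cover counting error only. Transcripts were matched to genes by RefSeq accession. The genes named were the top 10 by number of gains, the next 5 by promoter gains, all with a hypomethylated site, 2 per family and the 5 with the largest difference at a site. Others were named after their values were seen. The joining and matching steps were tested on simulated data. Alternatives are given in the closing section.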

Additional observations from a re-analysis of the deposited data

How the results depend on the processing

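Of 29 values recomputed under alternatives for the share of hypermethylated sites, the median gain, the promoter and intergenic shares and the number of regions, 26 stayed within the counting interval of the reported value or, for regions, within 1.5 times of it. The exceptions all came from keeping sites of at least 40 percentage points, which itself removes sites: the median gain became 49.1 percentage points, the promoter share 1.56% and the hypermethylated regions 45. The hypermethylated share ran from 86.3% over regions to 94.1% at 40 percentage points, and without Zfp316, the gene with the most sites, it was 89.1%. Leaving out Zfp36l1, or sites in transcripts of another gene, was added after the data were seen and gave 90.6 and 92.4%. The planned restriction to members with C2H2 motifs in their proteins was not run, since no protein sequences were used here. No replicate could be left out, and no paired analysis was possible because the tables hold no values per sample. The depth behind each difference is unknown.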

Other observations

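Some zinc finger genes with listed sites were neighbours. Joining members whose sites lay within 200 kb of each other gave 6 groups with 13 genes and 26 sites. Of these sites 25 were hypermethylated, near the 92.8% of all listed sites. The same grouping was not made for other listed genes, so no background stands beside the number of groups. The group of 3 on chromosome 11 (50591354 to 50700629, mm9) held the gains of Zfp879 and Zfp454 and the loss nearest Zfp354c. Zfp12 and Zfp316, within 35705 bp on chromosome 5, held 12 gains and no loss in the authors' deposited tables. The other groups were Zfp870 with Zfp871 on chromosome 17, Sall4 with Zfp64 on chromosome 2, Zfp282 with Zfp956 on chromosome 6 and Zfp260 with Zfp74 on chromosome 7. Each of those 4 held gains alone.

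Repeat labels, which the files give to intron and intergenic sites, were carried by 15 of 99 such hypermethylated zinc finger sites (15.2%, exact Clopper-Pearson 95% interval 8.74 to 23.8%), against 10.6% of all. SINE labels accounted for 7 (7.07%, against 3.55% of all) and LTR labels for 5 (5.05%, against 4.05%). Of the 7 SINE sites 3 lay close together nearest Prdm14. In homeobox genes 1 of 99 such sites carried a repeat label, and in forkhead, Sox, T-box and Gata genes 5 of 48 (10.4%). In both groups these were all SINE labels. CpG island labels were carried by 7 of the 99 hypermethylated zinc finger sites (7.07%), against 5.75% of all such sites. Of the 7, 3 were nearest Zfp345, 2 nearest Zfp369 and 2 nearest Zfp534, all 19564 to 40810 bp upstream of a start. None of the 11 hypomethylated zinc finger sites in introns or intergenic sequence carried an island label, which allows a share of up to 28.5% (exact Clopper-Pearson upper limit, counting error only). Over all such hypomethylated sites 16 of 390 did (4.10%). The reasons for these patterns were not tested.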
